A study of Mus musculus with 2 samples.

Results

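The 10 genes described here encode mucins and other components of colonic mucus. They were taken as the rows of both count matrices whose gene symbol is Muc2, Fcgbp, Clca1, Zg16, Tff3, Agr2, Muc1, Muc3, Muc4 or Muc13, which makes 10 of 55357 listed genes. Each symbol had 1 row. Single-cell RNA sequencing was run on the middle part of the colon of mice with colitis. The mice were 7 weeks old, were free of specific pathogens and had received 3% DSS (dextran sulfate sodium, which damages the epithelium) over 6 days. The 2 libraries are numbered repeats of this 1 group. No untreated sample was used, so no value below describes an effect of DSS. Nothing in the labels ties the repeats to separate animals. The p-values therefore reflect no more than how far these samples lie apart, and that spread may be technical.

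Goblet cells of the colon secrete mucus, a gel built on the polymer of the mucin Muc2. Muc2 is folded in the endoplasmic reticulum with the help of the disulfide isomerase Agr2, is heavily O-glycosylated in the Golgi, is packed in granules and expands after release. Fcgbp, the metalloprotease Clca1, the bacteria-binding lectin Zg16 and the trefoil peptide Tff3 leave the cell with it. Muc1, Muc3, Muc4 and Muc13 are instead anchored in the apical membrane, where they form the glycocalyx of the cell surface.

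The promoters of 4 members whose levels differ in kind are shown as the genomic sequence behind the results: Muc2 and Fcgbp were highest in goblet cells, Agr2 was also present in undifferentiated cells, and Muc13 was highest in colonocytes. The sequences are the 250 bases before the gene start in RefSeq (build GRCm38.p6), 5′ to 3′ on the gene's strand. In the first 3, capitals mark the TATA box motif TATAAA, the motif CAGCTG (an E-box, the motif class bound by basic helix-loop-helix factors, the family of the goblet regulator Atoh1) and TTTATGG (the motif class of the intestinal Cdx factors), on either strand, and the Muc13 window holds none of these.
Muc2, chr7:141690090-141690339, plus strand: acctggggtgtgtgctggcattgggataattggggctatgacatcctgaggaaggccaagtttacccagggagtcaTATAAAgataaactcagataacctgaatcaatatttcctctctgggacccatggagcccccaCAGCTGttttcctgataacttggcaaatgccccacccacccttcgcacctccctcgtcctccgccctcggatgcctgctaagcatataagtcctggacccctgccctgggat
Fcgbp, chr7:28070986-28071235, plus strand: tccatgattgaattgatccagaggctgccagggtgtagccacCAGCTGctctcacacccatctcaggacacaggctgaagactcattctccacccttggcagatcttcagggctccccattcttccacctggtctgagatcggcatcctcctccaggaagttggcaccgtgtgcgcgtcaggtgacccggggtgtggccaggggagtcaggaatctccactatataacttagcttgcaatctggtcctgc
Agr2, chr12:35992675-35992924, plus strand: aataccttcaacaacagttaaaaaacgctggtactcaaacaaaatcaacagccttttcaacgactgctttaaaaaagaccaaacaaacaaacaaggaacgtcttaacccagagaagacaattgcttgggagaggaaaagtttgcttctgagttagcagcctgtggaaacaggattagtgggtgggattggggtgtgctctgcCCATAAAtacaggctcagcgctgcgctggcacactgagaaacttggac
Muc13, chr16:33793787-33794036, plus strand: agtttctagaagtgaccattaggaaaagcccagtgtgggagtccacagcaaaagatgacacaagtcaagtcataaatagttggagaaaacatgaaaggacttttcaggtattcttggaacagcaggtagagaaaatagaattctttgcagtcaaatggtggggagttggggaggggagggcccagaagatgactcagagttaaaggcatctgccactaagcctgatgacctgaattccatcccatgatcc

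RefSeq promoters were matched for 7 of the 10 members, 8 promoters in all because Muc13 has a pair. Tff3, Zg16 and Clca1 had no entry. The 250 bases before the start that RefSeq lists for Muc3, chr5:137166047-137166296 on the minus strand, lie upstream of the GENCODE M21 gene span given below and do not adjoin it, so they may not be the promoter of the gene counted. Windows of 300 bases, 250 before and 50 after the start, were searched on both strands. CAGCTG lay in the windows of Muc2 and Fcgbp, at -112 and -208 from the start, and in 16.3% of all 32851 promoters. The general E-box CANNTG, which includes CAGCTG, lay in all 8 windows and in 72.3% of all promoters. TATAAA lay in the windows of Muc1, Muc2 and Muc4, at -31, -174 and -36 from the start, and in 13.6% of all promoters. The Muc2 match thus lies far from the start. TTTATGG lay in that of Agr2, at -48 on the opposite strand, and in 2.75% of all promoters. The Foxa motif TGTTTAC, the Ets-type motif CCGGAT and the motif ACGTG were in none of the 8 windows and in 3.65%, 6.04% and 19.6% of all promoters. These matches are descriptions of the letters only.

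By the GENCODE M21 annotation of the same build, Muc2 (ENSMUSG00000025515) spans chr7:141690340-141754693 on the plus strand and Fcgbp spans chr7:28071236-28120862 on the plus strand. Zg16 lies at chr7:127050156-127087328 on the minus strand. Clca1 lies at chr3:145003817-145032776 on the minus strand and Muc1 at chr3:89229057-89233381 on the plus strand. Agr2 spans chr12:35992907-36004087 on the plus strand and Tff3 spans chr17:31125306-31129646 on the minus strand. Muc13 spans chr16:33794037-33819934 on the plus strand, and RefSeq places Muc4 on the same chromosome at chr16:32735886-32782391. Muc3 spans chr5:137134922-137149322 on the minus strand. A separate row is named Muc3a, and the counting could split reads between the rows if their sequences are alike. Their sequences were not compared. The Muc3a row held 7313 UMIs in library 1 and 4840 in library 2, against 187024 and 122017 UMIs in the Muc3 row. How reads were divided between the rows is not known, and values of Muc3 are uncertain. A UMI is a unique molecular identifier, which marks 1 captured RNA molecule.

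Library 1 held 76622643 UMIs in 6597 barcodes and library 2 held 94204110 in 9611 barcodes. Per the labels' protocols 5000 cells were to be captured per sample. Filters left 5419 and 8425 cells, and 14 barcode sequences occurred among the cells of both libraries. Cells were clustered without the members and without the genes of the mucus pathway, and clusters were named from marker genes, so each class name means cells like that type. Genes that vary with the members stayed in the clustering, and the classes are not independent of them. Epithelial cells numbered 1848 in library 1 and 1239 in library 2. Among them were 132 and 130 goblet cells, 1352 and 802 colonocytes, and 196 and 225 undifferentiated cells, the last led by crypt and cell-cycle genes. Goblet cells made up 7.14% of epithelial cells in library 1 (exact 95% interval 6.01 to 8.41%) and 10.5% in library 2 (8.84 to 12.3%). Median depth differed by class, at 38965 and 38533 UMIs per goblet cell, 15070 and 18752 per colonocyte, and 29985 and 34163 per undifferentiated cell. Intervals on shares and counts cover counting error only. Fewer cells of a type and less RNA per cell cannot be told apart in a class total, and levels are given as counts per 1e6 UMIs of the class (CPM).

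The members fell in 2 kinds by where their UMIs lay. Goblet cells held 73.0% of the Muc2 UMIs of library 1 and 72.5% of those of library 2. For the other secreted components (Fcgbp, Clca1, Zg16, Tff3) and Agr2 this share was between 66.0% and 85.2%. The surface mucins Muc3 and Muc13 lay mainly in other epithelial cells. Goblet cells held 1.27% and 0.850% of Muc3 and 4.36% and 7.04% of Muc13, while other epithelial cells held 76.5% and 75.7% of Muc3 and 73.7% and 67.9% of Muc13. Muc4 lay between the kinds, with 23.4% and 24.9% of its UMIs in goblet cells and 56.6% and 53.4% in other epithelial cells. Muc1 was the least abundant member, with 212 and 218 UMIs in the whole libraries.

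**Figure D1:**
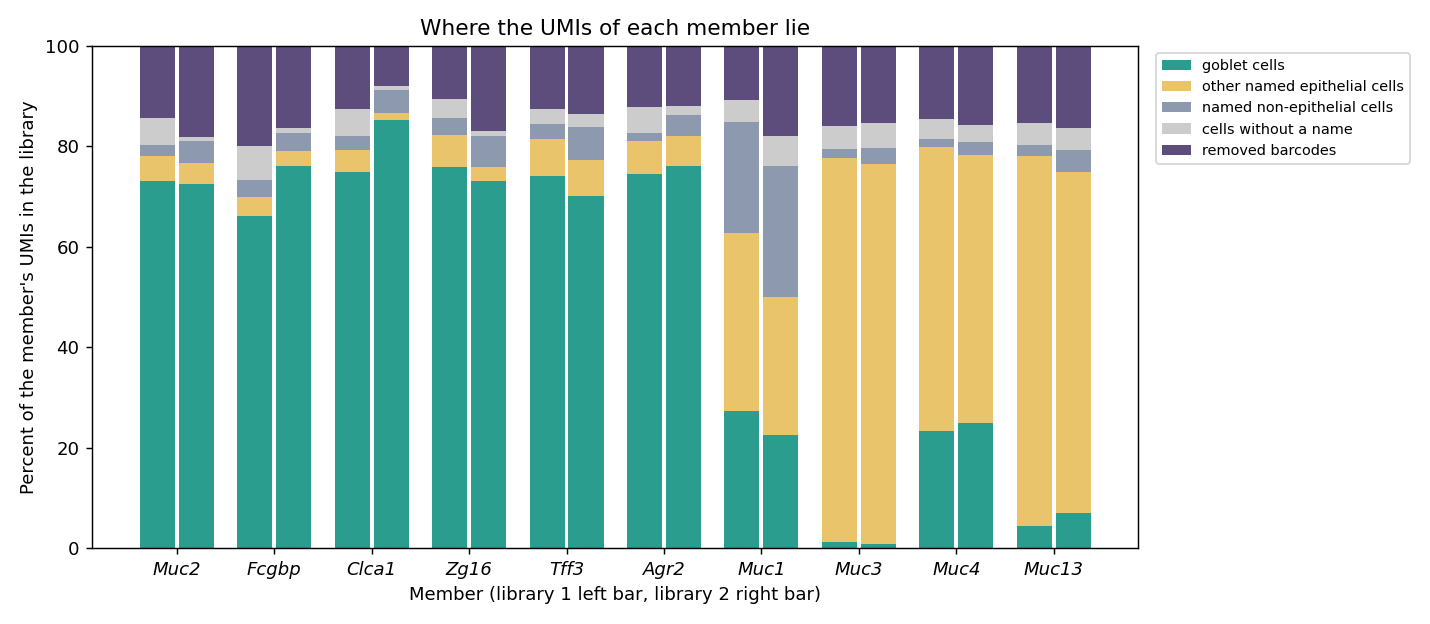
Share of each member's UMIs, in percent of its total in the library, by place of the barcode; the left bar of a pair is library 1 and the right bar library 2, and colours stand for goblet cells, other named epithelial cells, named non-epithelial cells, cells without a name and barcodes removed by the filters. Muc2 bars are 73.0% and 72.5% goblet, whereas Muc3 bars are 1.27% and 0.850% goblet.

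The 5 secreted components and Agr2, which resides in the secretory pathway and is counted with them below as the 6 secreted members, were high in goblet cells. Agr2 reached 13723 CPM in library 1 and 13774 CPM in library 2, and Muc2 reached 13079 and 9150 CPM. Zg16 was at 7503 and 8180 CPM, Tff3 at 2858 and 3385 CPM, Fcgbp at 999.6 and 1142 CPM, and Clca1 at 994 and 895 CPM. Of these 6 genes Muc2 differed most between the libraries. Counts come from the 3' ends of transcripts, so CPM is not divided by length, and levels of different genes are set side by side only roughly.

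In colonocytes and in the non-epithelial classes the same 6 genes were low, and colonocyte levels lay near those of cells that should lack them. Pooled over the 9 named non-epithelial classes, Muc2 was at 103 and 73.4 CPM, Zg16 at 92.0 and 93.3 CPM, and Agr2 at 75.2 and 105 CPM. Colonocytes held 133 and 90.6 CPM of Muc2, 1.29 and 1.23 times these non-epithelial levels. Zg16 was at 130 and 77.2 CPM, Tff3 at 54.0 and 65.9 CPM, Agr2 at 79.9 and 63.4 CPM, Fcgbp at 9.79 and 9.23 CPM and Clca1 at 11.3 and 3.76 CPM in colonocytes. Colonocytes thus held Zg16 at 1.42 and 0.828 times, Tff3 at 1.79 and 1.55 times, Fcgbp at 0.728 and 1.23 times, Clca1 at 1.08 and 0.583 times and Agr2 at 1.06 and 0.603 times the non-epithelial levels. Ratios to Muc2 over the 9 classes varied by member. Zg16 over Muc2 ran from 0.605 to 1.26 in library 1 and from 0.889 to 1.47 in library 2, and Tff3 over Muc2 from 0.145 to 0.447 and from 0.403 to 0.894. Fcgbp over Muc2 ran from 0.0345 to 0.284 and from 0.0556 to 0.167, and Clca1 over Muc2 from 0.0526 to 0.155 and from 0 to 0.117, on few UMIs in the small classes. These CPM levels in colonocytes are close to those of cells that should lack the genes, and no expression is read from them. Colonocytes were deeper than B cells, so a like CPM stood for more UMIs per cell. The 1352 and 802 colonocytes held 3466 and 1757 Muc2 UMIs, and the 145 and 290 B cells held 58 and 94. The non-epithelial CPM is therefore no firm floor, and whether colonocytes express these genes was not tested.

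**Figure D2:**
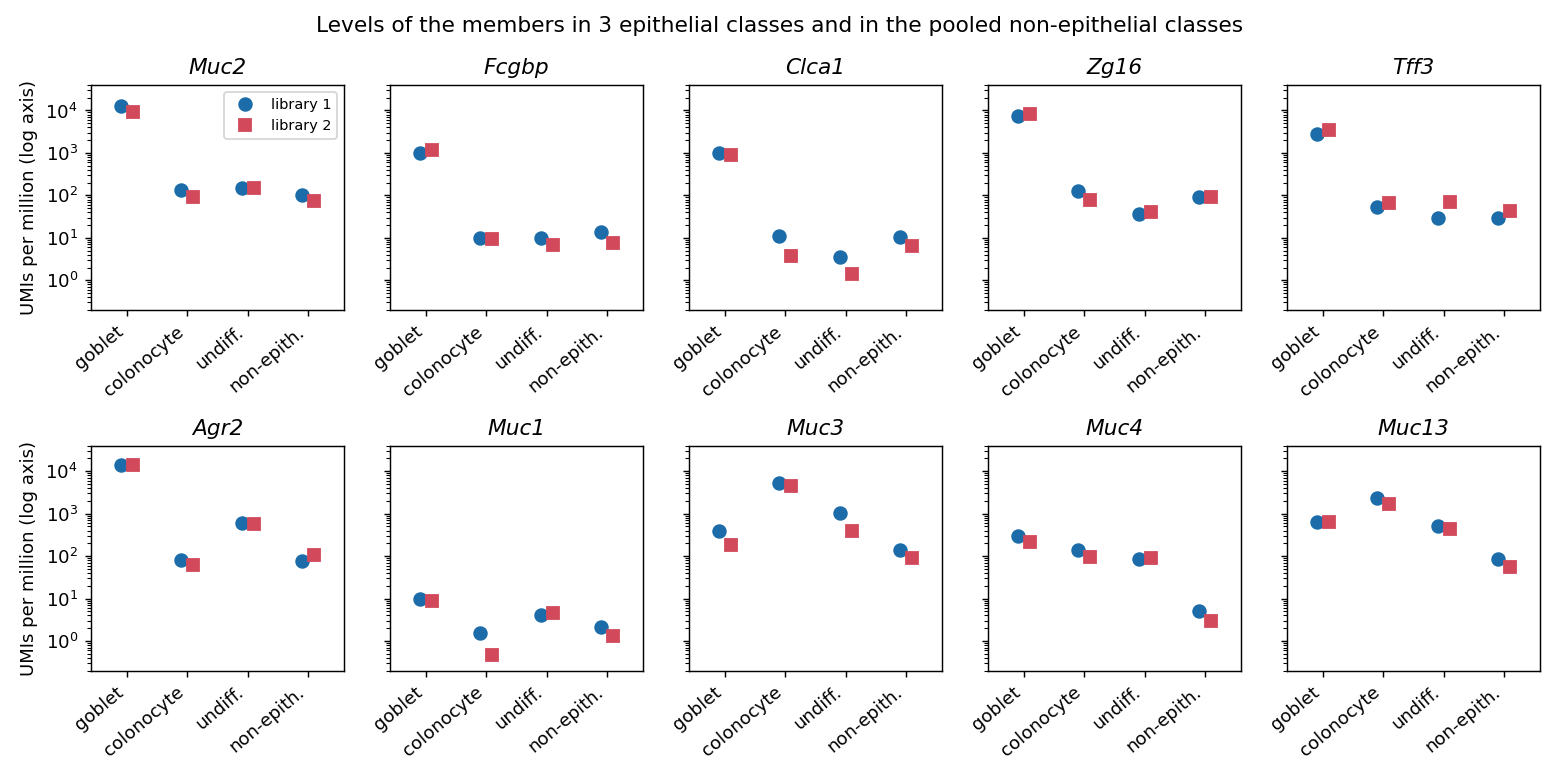
CPM on a log axis (y) of each member in goblet, colonocyte and undifferentiated cells and in the 9 named non-epithelial classes pooled (x), with a circle for library 1 and a square for library 2. Muc2, Fcgbp, Clca1, Zg16, Tff3 and Agr2 are highest in goblet cells, with Muc2 at 13079 and 9150 CPM, and Muc3 and Muc13 are highest in colonocytes.

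On the CPM scale Agr2 was the exception in undifferentiated cells. These held 591 and 573 CPM of Agr2, 7.86 and 5.44 times the non-epithelial level, while Muc2 in the same cells was at 151 and 153 CPM, 1.47 and 2.09 times that level. Part of that Muc2 lay in few cells, as given below. At 2000 UMIs per cell, Agr2 was detected in 59.9% and 53.6% of undifferentiated cells, against 24.4% and 38.2% of B cells, which should lack it. Before thinning the shares were 97.4% and 95.1% against 31.0% and 46.9%, with median depths of 29985 and 34163 UMIs in undifferentiated cells and 2929 and 2347 UMIs in B cells. Enteroendocrine cells, hormone-secreting cells of which there were 32 and 13, held 148 and 459 CPM of Tff3. Their Agr2 was at 1945 and 99.8 CPM. Epithelial cells without a name held 2007 and 643 CPM of Agr2 and 1872 and 148 CPM of Muc2. They were a cluster led by neutrophil genes and a cluster led by T, NK and innate lymphoid genes. In library 1, 6 of 90 cells of the former held 93.9% of its Muc2. In the latter 8 of 37 cells held 98.5%. Without those cells the levels were 79.4 and 53.4 CPM. Zg16 in undifferentiated cells, at 35.6 and 39.6 CPM, was below the non-epithelial CPM, at 0.387 and 0.425 times. These ratios do not hold per cell, since undifferentiated cells were far deeper. The 196 and 225 undifferentiated cells held 248 and 334 Zg16 UMIs, and the 145 and 290 B cells held 73 and 138. Whether undifferentiated cells express the members other than Agr2 was not tested.

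Detection in single cells followed the levels for Muc2 and Agr2 but not for Zg16. With every cell thinned to 2000 UMIs, which kept 130 and 129 goblet cells, Muc2 was found in 96.9% and 94.6% of goblet cells, 15.8% and 10.6% of colonocytes, 12.5% and 11.4% of undifferentiated cells and 22.8% and 19.6% of the 123 and 204 B cells kept. Zg16, despite its high goblet level, was found in a minority of goblet cells, 30.8% and 35.7%, against 31.7% and 24.0% of B cells. Thinning takes a larger part of a goblet cell's UMIs than of a B cell's. The B-cell share is therefore no floor for goblet cells. Unthinned, Zg16 was found in 86.4% and 82.3% of goblet cells against 39.3% and 32.4% of B cells, and Muc2 in 99.2% and 98.5% against 33.8% and 26.6%. Tff3 at 60.8% and 64.3% of thinned goblet cells lay above its B-cell shares of 8.13% and 18.1%, as did Fcgbp at 37.7% and 36.4% against 5.69% and 3.43%. Clca1 was found in 26.2% and 17.8% of thinned goblet cells against 5.69% and 4.41% of B cells.

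The surface mucins had another order. Muc3 was found in 33.8% and 22.5% of thinned goblet cells, 99.5% and 99.4% of colonocytes and 62.5% and 43.6% of undifferentiated cells. In B cells the shares were 32.5% and 27.5%, which are no floor for the far deeper goblet cells. Before thinning, the 132 and 130 goblet cells held 2368 and 1037 Muc3 UMIs, and the 145 and 290 B cells held 106 and 133. Muc13 was found in 76.2% and 74.4% of goblet cells, 96.4% and 91.6% of colonocytes and 58.3% and 57.7% of undifferentiated cells, all above the 23.6% and 19.6% of B cells. Muc4, at 0.813% of 123 B cells in library 1 and 0% of 204 in library 2 (exact 95% upper limit 1.79%), had the lowest background of the abundant members. It was found in 49.2% and 35.7% of goblet cells, 24.3% and 18.5% of colonocytes and 17.7% and 17.3% of undifferentiated cells. Unthinned shares of Muc4 were 96.2% and 93.8% in goblet cells, 57.5% and 52.4% in colonocytes and 74.5% and 77.8% in undifferentiated cells, whose depths differ. Muc1 was found in 3.85% and 3.10% of thinned goblet cells.

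Goblet cells were compared with colonocytes, the absorptive cells, on UMIs summed per class and library, in edgeR's quasi-likelihood test with TMM scaling (a scaling that holds the bulk of genes level between sums) and the library as a block. Of the 10 members 7 were higher in goblet cells and 2 were lower at a Benjamini-Hochberg adjusted p under 0.05. Over all 13566 genes tested 37.2% were higher and 36.8% were lower, 5048 and 4995 genes, a split that became 7782 and 2770 when sums were scaled by library totals alone. Log2 differences with the standard errors the test implies were 6.86 ± 0.18 for Agr2, 6.33 ± 0.33 for Clca1, 6.08 ± 0.17 for Fcgbp, 5.90 ± 0.20 for Muc2, 5.53 ± 0.27 for Zg16 and 4.97 ± 0.26 for Tff3, all higher in goblet cells in both libraries. Colonocyte CPM of these 6 genes lay near the non-epithelial CPM, so the differences measure distance from about that level. Depth per cell differs between these classes, and whether colonocytes express these genes at a low level was not tested.

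Among the surface mucins Muc3 and Muc13 ran the other way. Muc3, a large membrane mucin of absorptive cells, was at 397 and 182 CPM in goblet cells against 5205 and 4590 CPM in colonocytes. Its log2 difference was -4.94 ± 0.27 (edgeR adjusted p = 1.28e-06). Muc13, a smaller membrane mucin, was at 635 and 653 CPM in goblet cells against 2308 and 1652 CPM in colonocytes, a log2 difference of -2.34 ± 0.16 (edgeR adjusted p = 3.63e-06). Scaled by library totals alone the differences were -4.22 for Muc3 and -1.60 for Muc13. The groups did not overlap for either gene. The share of all genes without overlap was not counted, and 37.2% of all genes were called higher and 36.8% lower. The goblet level of Muc3 was 2.88 and 1.98 times the non-epithelial level, and that of Muc13 was 7.30 and 11.9 times it. Muc4, a long membrane mucin, was at 296 and 213 CPM in goblet cells against 140 and 95.1 CPM in colonocytes. The log2 difference of 0.38 ± 0.16 did not pass the test (edgeR adjusted p = 0.0538). Scaled by library totals alone it was 1.12 (edgeR adjusted p = 6.63e-05), a scaling that puts the median of all genes at 0.76, against 0.03 with TMM. Muc1 was at 9.73 and 8.59 CPM in goblet cells, 58 and 49 UMIs, against 1.57 and 0.464 CPM in colonocytes, 41 and 9 UMIs, with a log2 difference of 2.39 ± 0.41 (edgeR adjusted p = 0.000922).

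Against undifferentiated cells 8 members were higher in goblet cells and 1 was lower, with 12.7% of all genes higher and 6.41% lower. These 1721 and 870 genes became 1550 and 1265 with RLE scaling, a median-based scaling, and 1387 and 1829 by library totals. Clca1 differed by 8.79 ± 0.40 on the log2 scale, Zg16 by 7.83 ± 0.30, Fcgbp by 7.17 ± 0.18, Muc2 by 6.29 ± 0.21 and Tff3 by 6.17 ± 0.28. Agr2 differed least of the secreted group, by 4.70 ± 0.16 (edgeR adjusted p = 2.06e-06). Muc4 was at 296 and 213 CPM in goblet cells against 86.6 and 89.6 CPM in undifferentiated cells, a log2 difference of 1.63 ± 0.16 (edgeR adjusted p = 0.000431). Muc13 at 635 and 653 CPM against 503 and 445 CPM gave 0.58 ± 0.15 (edgeR adjusted p = 0.0311), and this call was lost in 6 of 11 alternatives with a test, among them leaving out the library block (edgeR adjusted p = 0.16). Muc3 at 397 and 182 CPM against 1012 and 389 CPM gave -1.10 ± 0.23 (edgeR adjusted p = 0.0143), and the adjusted p was 0.253 without the library as a block. The 2 groups overlapped for Muc3, since its goblet level in library 1 lay above its undifferentiated level in library 2. Muc1 did not pass the test (1.19 ± 0.40, edgeR adjusted p = 0.0761).

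Colonocytes against undifferentiated cells bore on the surface mucins. Muc3 was higher by 3.84 ± 0.26 and Muc13 by 2.92 ± 0.16 on the log2 scale in colonocytes, with 2308 and 1652 CPM of Muc13 in colonocytes against 503 and 445 CPM in undifferentiated cells. By library totals the differences were 2.98 for Muc3 and 2.05 for Muc13. Muc4 was higher by 1.25 ± 0.16, at 140 and 95.1 CPM in colonocytes against 86.6 and 89.6 CPM in undifferentiated cells, and by 0.38 by library totals (edgeR adjusted p = 0.0359). In all 7 members were higher and 2 were lower, with 40.3% of all genes higher and 36.3% lower. By library totals these 5468 and 4920 genes became 2786 and 7996, and the median of all genes moved to -0.80. The lower pair was Agr2, at a log2 difference of -2.16 ± 0.14, and Muc1, at -1.21 ± 0.45 (edgeR adjusted p = 0.0361). The Muc1 call was lost without the library block (edgeR adjusted p = 0.0963), with members and pathway genes kept in the clustering (0.0504) and without the smaller goblet cluster described below (0.0664), and library 1 alone gave -0.40 against -2.21 in library 2 alone. The other 4 higher calls were Clca1, Zg16, Tff3 and Fcgbp, whose levels in both classes lay close to the non-epithelial level or below it, so no expression is read from these calls. By library totals Fcgbp and Tff3 no longer passed (edgeR adjusted p = 0.317 and 0.191). Both also lost the call with at least 500 genes per cell (edgeR adjusted p = 0.437 and 0.364), and Tff3 lost it with no doublets removed, at Leiden resolution 0.5 and with members and pathway genes kept in the clustering (edgeR adjusted p = 0.356, 0.0815 and 0.385). Muc2 did not pass the test (0.39 ± 0.17, edgeR adjusted p = 0.0677), and its direction depended on the processing. By library totals it passed as lower in colonocytes (-0.48, edgeR adjusted p = 0.0229), and it was -0.41 with members and pathway genes kept in the clustering (edgeR adjusted p = 0.2). It passed as higher in colonocytes without a low-count filter (0.44, edgeR adjusted p = 8.27e-05) and in 1 joint fit with the non-epithelial classes (0.51, edgeR adjusted p = 0.0139).

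Epithelial cells as a whole were set against each of 9 other named classes in a fit over 13928 genes. All 9 members tested were higher than the mean of the other classes, and 35.8% of all genes were higher. Log2 differences ran from 3.91 for Zg16 to 4.77 for Agr2 over the 8 members other than Muc4. Muc4 had 0 UMIs in the smooth muscle and pericyte cells of both libraries, so its mean rests on a fitted value there, and against the other 8 classes it ran from 3.57 to 5.73. The lower genes were 19.6%. Of all genes 4980 were higher and 2733 lower, and 4462 and 4951 in DESeq2. The same 9 were higher than every one of the 9 classes, which held for 9.05% of all genes. Muc1 was too sparse to be tested. The nearest class was neutrophils for 7 of the 9, at 2.33 to 3.74 log2 units, and mast cells for Muc4 and Muc13. The neutrophil sums had TMM factors of 0.470 and 0.499, and their part in that order was not tested. On the CPM scale mean B-cell levels lay above neutrophil levels for 6 of these 7, all but Fcgbp, as for Agr2 at 94.7 CPM in neutrophils and 179 CPM in B cells. In neutrophils of library 1 a single barcode held 78 of the 110 Fcgbp UMIs, and without it the level was 10.3 CPM instead of 35.3 CPM. Library 2 had 5.72 CPM.

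**Figure D3:**
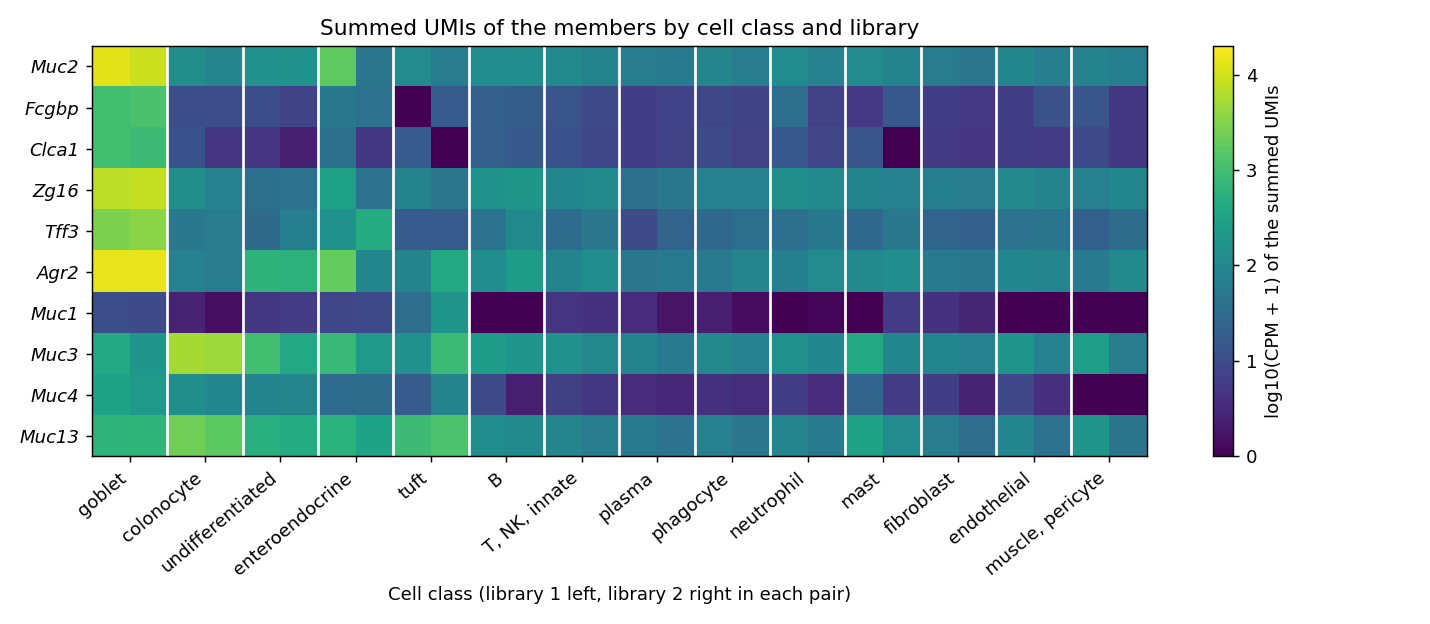
Heat map of log10(CPM + 1) of the summed UMIs for each member (rows) and cell class (column pairs, library 1 left and library 2 right). Goblet columns are highest for Agr2, at 13723 and 13774 CPM, and for Muc2; the colonocyte columns are highest for Muc3, at 5205 and 4590 CPM.

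The goblet class held 2 clusters, here called the smaller and the larger. The smaller, with 24 and 17 cells, was led by Sval1, Spink1, Fer1l6 and Retnlb, and the larger, with 108 and 113 cells, by Fkbp11, Spdef, Slc12a8 and Pla2g2a. They were singled out after the values were seen, so the differences between them are a description with no test. In the smaller, Zg16 was at 80719 and 116779 CPM, against 1377 and 1158 CPM in the larger. Clca1 was at 11511 and 14207 CPM against 114 and 34.7 CPM, and Fcgbp at 10203 and 14723 CPM against 230 and 264 CPM. Tff3 was 17.8 and 21.4 times and Muc2 4.23 and 7.41 times higher in the smaller. Agr2 was lower there, at 8877 and 6917 CPM against 14128 and 14218 CPM, a ratio of 0.628 and 0.487. The 6 secreted members together made up a median of 19.0% and 24.2% of the UMIs of a cell in the smaller, with a range of 4.73 to 34.2% in library 1 and 14.4 to 41.8% in library 2, against medians of 2.73% and 2.27% in the larger.

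Within the smaller cluster, Spearman's rho between members over 23 and 16 thinned cells was 0.585 and 0.785 for Muc2 with Clca1 and 0.66 and 0.75 for Muc2 with Fcgbp. Muc2 with Agr2 gave -0.48 and -0.54, and Muc2 with Zg16 gave 0.02 and -0.02. The cells of a library share its free RNA, and these values are descriptions.

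Within the larger cluster most cells held little Zg16 and Clca1. The median share of a cell's UMIs was 0.0036% and 0.0048% for Zg16 and 0 for Clca1 in both libraries, and 5 of 108 and 5 of 113 cells had over 1% Zg16. Muc2 in the same cells had a median of 0.752% and 0.520%, and Agr2 of 1.27% and 1.18%. The clusters also differed in depth, with a median of 16230 and 17030 UMIs per cell in the smaller and 46490 and 41768 in the larger, and the part of depth in the differences was not tested. Proliferation genes moved with them: Mki67 was at 65.2 and 2.89 CPM in the smaller against 207 and 449 CPM in the larger. Among the surface mucins Muc13 was 3.34 and 3.64 times higher in the smaller, and Muc4 2.23 and 4.09 times. B-cell markers were at 0 in the smaller for 7 of 7 genes, and smooth muscle and pericyte markers summed to 2.17 and 2.89 CPM. The 9 neutrophil markers summed to 365 and 594 CPM in the smaller against 310 and 480 CPM in the larger, and the 12 colonocyte markers to 1541 and 2681 CPM against 1543 and 1349 CPM. The 10 undifferentiated markers summed to 274 and 115 CPM in the smaller against 1744 and 2653 CPM in the larger. The 11 T, NK and innate lymphoid markers summed to 23.9 and 72.1 CPM against 30.2 and 44.6 CPM. The part of these other cell types in the differences was not tested.

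**Figure D4:**
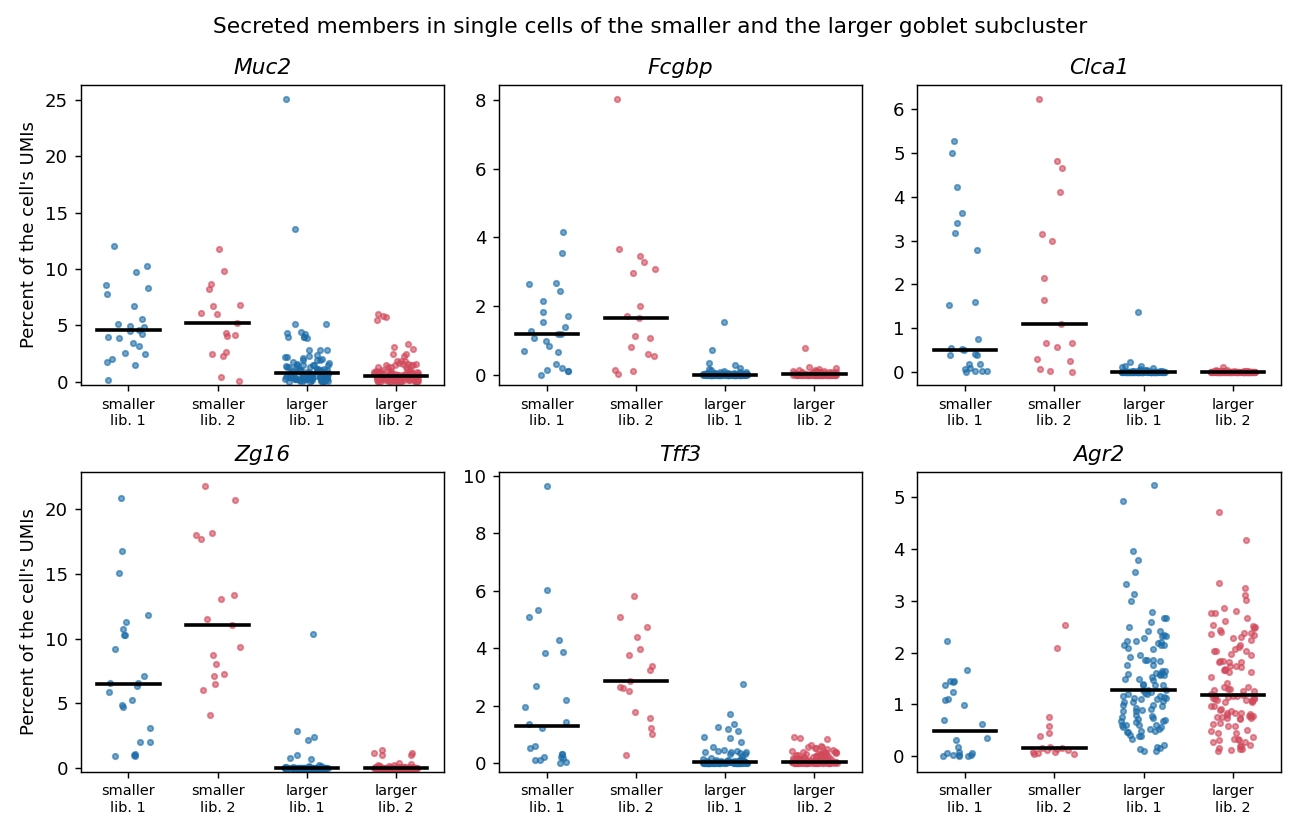
Percent of a cell's UMIs (y) taken by each secreted member in single cells of the smaller and the larger goblet cluster, by library (x); each point is 1 cell and black lines are medians. Zg16 medians are 6.45% and 11.1% in the smaller cluster and 0.0036% and 0.0048% in the larger, while Agr2 medians are lower in the smaller, at 0.494% and 0.151%.

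When the smaller cluster was left out, a choice made after seeing the data, goblet cells differed from colonocytes by 2.86 for Zg16, 2.5 for Clca1, 3.92 for Fcgbp and 3.75 for Tff3 on the log2 scale. Muc2 was then at 5.47 and Agr2 at 6.86. All 6 stayed past the threshold in edgeR's test, with adjusted p values from 7.65e-08 for Agr2 to 4.07e-06 for Zg16. 

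Surface mucins varied within the colonocytes. Over the 9 clusters of library 1 and 7 of library 2 with at least 20 cells, Muc3 ran from 2971 to 7450 and from 2422 to 8995 CPM, and Muc13 from 1188 to 3883 and from 851 to 3997 CPM. Muc4 ran from 14.3 to 428 and from 16.7 to 221 CPM. All 3 were highest in the cluster led by Cyp2d9, Clca4a and Atp12a in both libraries. Muc4 was lowest in the cluster led by Aqp4 and Hao2 in both, where Muc3 and Muc13 were lowest in library 1. In library 2 these were lowest in the cluster led by Myl7 and Areg. Depth moved with these levels, at 11066 and 8594 UMIs per cell in the highest and 29990 and 29530 in the Aqp4-led cluster, and its part was not tested. Muc2 in some non-goblet clusters rested on few barcodes: in the enteroendocrine cells of library 1 it was 1737 CPM, of which 3 of 32 cells held 97.2%, and 72.5 CPM without them. In the undifferentiated cluster led by Gvin-ps3, 2 of 125 and 2 of 77 cells held 64.7% and 73.4%. In the one led by Top2a, 3 of 148 cells of library 2 held 67.1%, and 0 of 71 in library 1 were over 1000 CPM. In the Ly6g-led colonocyte cluster 2 of 188 and 2 of 28 cells held 71.9% and 87.4%, but the Car1-led cluster had no such cell.

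Gene by gene over the 24 sums of class and library, Pearson's r of log2(CPM + 1) with Muc2 was 0.95 for Fcgbp, 0.95 for Tff3, 0.95 for Agr2, 0.94 for Zg16 and 0.91 for Clca1, and 0.21 for Muc3. Over 16389 genes the most like Muc2 were Cyp2d37-ps, Chrm1, Ptprn2, D930020B18Rik and Chrnb4, each at 0.98. The most like Muc13 were Tspan1, Tmem45b, Myo1a, Phgr1 and Ifi27l2b, at 0.97 to 0.98. The most like Muc1 were Oip5, Syne4, Gm5835, Depdc1a and Gm42067, at 0.82 to 0.85. Sums of a library share its depth and free RNA, and these values are descriptions.

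The remaining genes of the mucus pathway were taken from 7 lists of 126 genes, 124 of them in the files and 108 tested. In goblet cells against colonocytes 53 were higher and 41 were lower, and the median log2 difference was 0.31, against 0.03 for all genes. Over all genes tested the shares were 37.2% higher and 36.8% lower, and the share of lower pathway genes was near that. By library totals these counts were 67 and 34. Against undifferentiated cells 65 were higher and 13 lower, with a median of 0.81, against -0.01 for all genes and 12.7% and 6.41% of all genes higher and lower. Of the 19 genes of folding and packaging, 15 were higher and 2 lower against colonocytes (all genes 37.2% and 36.8%), and 15 were higher and 1 lower against undifferentiated cells (all genes 12.7% and 6.41%). Pdia5, a disulfide isomerase, averaged 174 ± 18.6 TMM-scaled CPM in goblet cells, 3.17 ± 0.56 in colonocytes and 33.3 ± 3.36 in undifferentiated cells (SD, n = 2 libraries each). Its log2 difference was 5.77 ± 0.12 against colonocytes and 2.39 ± 0.10 against undifferentiated cells. Dnajc10, a reductase of the endoplasmic reticulum, was higher by 2.11 ± 0.12 and Pdia6, a disulfide isomerase, by 1.46 ± 0.11 against undifferentiated cells. Tgm3, a transglutaminase that crosslinks mucus, ran the other way, at 2.24 and 0 TMM-scaled CPM in goblet cells against 182 and 27.4 in colonocytes. Agr3, a relative of Agr2, was at 0.747 and 3.90 in goblet cells, 0 and 0.0711 in colonocytes and 4.27 and 4.02 in undifferentiated cells.

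Of the 38 O-glycan enzymes tested 15 were higher and 16 lower against colonocytes, near the shares over all genes of 37.2% and 36.8%. Against undifferentiated cells 28 were higher and 1 was lower, beside 12.7% and 6.41% of all genes. Galnt5, which starts O-glycans, was at 79.5 and 70.5 TMM-scaled CPM in goblet cells against 1.05 and 0.782 in colonocytes, a log2 difference of 6.32 ± 0.18. St6gal1, a sialyltransferase, was higher by 5.74 ± 0.23 against colonocytes and 5.19 ± 0.24 against undifferentiated cells. Fut1, a fucosyltransferase, was at 2.39 and 3.00 in goblet cells against 0.175 and 0 in colonocytes. Gal3st2, a sulfotransferase, was at 5.23 and 1.95 in goblet cells against 0.231 and 0 in undifferentiated cells. It was highest of the 3 classes in colonocytes, at 10.6 and 5.47, a log2 difference of -1.19 ± 0.29 for goblet cells against colonocytes. B3gnt6, the core-3 enzyme, was at 10.6 and 3.00 in goblet cells against 0 and 0.0934 in undifferentiated cells.

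Of 16 genes of granule exocytosis 8 were higher and 5 lower against colonocytes (all genes 37.2% and 36.8%), and 10 were higher and 1 lower against undifferentiated cells (all genes 12.7% and 6.41%). Rab27a and Rab27b, small GTPases of secretory granules, were higher by 2.58 ± 0.17 and 2.28 ± 0.14 against undifferentiated cells. Syt7, a calcium sensor of exocytosis, was higher by 2.96 ± 0.17 and 4.91 ± 0.22. Unc13d, a priming factor, was lower, with a log2 difference of -2.85 ± 0.26 against colonocytes. Of 10 goblet peptides and lectins 4 were higher and 5 lower against colonocytes (all genes 37.2% and 36.8%). Retnlb, a bactericidal peptide of goblet cells, averaged 2016 ± 623 TMM-scaled CPM in goblet cells, 22.7 ± 6.18 in colonocytes and 13.9 ± 0.55 in undifferentiated cells. Ang4, a bactericidal ribonuclease family member, was at 12.7 and 22.5 in goblet cells against 0.116 and 0.0934 in undifferentiated cells. Reg4, a secreted lectin, was at 50.8 and 27.0 in goblet cells against 0.292 and 0.0711 in colonocytes, whereas Clca4a, a relative of Clca1, was lower, with a log2 difference of -6.46 ± 0.33, at 16.5 ± 11.4 in goblet cells against 1328 ± 106 in colonocytes.

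Of 8 genes listed for bicarbonate and chloride in mucus release 3 were higher and 4 lower against colonocytes (all genes 37.2% and 36.8%). Slc26a3, the apical chloride-bicarbonate exchanger, was lower, with a log2 difference of -5.55 ± 0.15 and Slc9a3, the sodium-proton exchanger, of -5.73 ± 0.25, whereas Car8 was higher by 5.09 ± 0.29. Against undifferentiated cells 1 was higher and 5 were lower (all genes 12.7% and 6.41%), among them Cftr at a log2 difference of -1.26 ± 0.10 and the bicarbonate cotransporter Slc4a4 at -1.08 ± 0.13. Of 16 regulators 8 were higher and 8 lower against colonocytes (all genes 37.2% and 36.8%). Gfi1, a secretory lineage repressor, was at 14.9 and 16.8 TMM-scaled CPM in goblet cells against 0.409 and 0.569 in colonocytes, and the Notch ligand Dll4 was higher by 4.60 ± 0.36 and Foxa2 by 4.48 ± 0.16. Against undifferentiated cells 8 regulators were higher and 3 lower (all genes 12.7% and 6.41%), Dll4 by 2.85 ± 0.32 and Dll1 by 2.07 ± 0.32 among the higher. Muc3a, the only other mucin with enough UMIs to test, was lower, with a log2 difference of -0.94 ± 0.09 against colonocytes (edgeR adjusted p = 3.46e-05), and the difference was -0.21 by library totals (edgeR adjusted p = 0.0961). Muc5ac and Muc5b, mucins of stomach and airway, had 0 and 0 UMIs in library 1 and 1 and 0 UMIs in library 2.

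**Figure D5:**
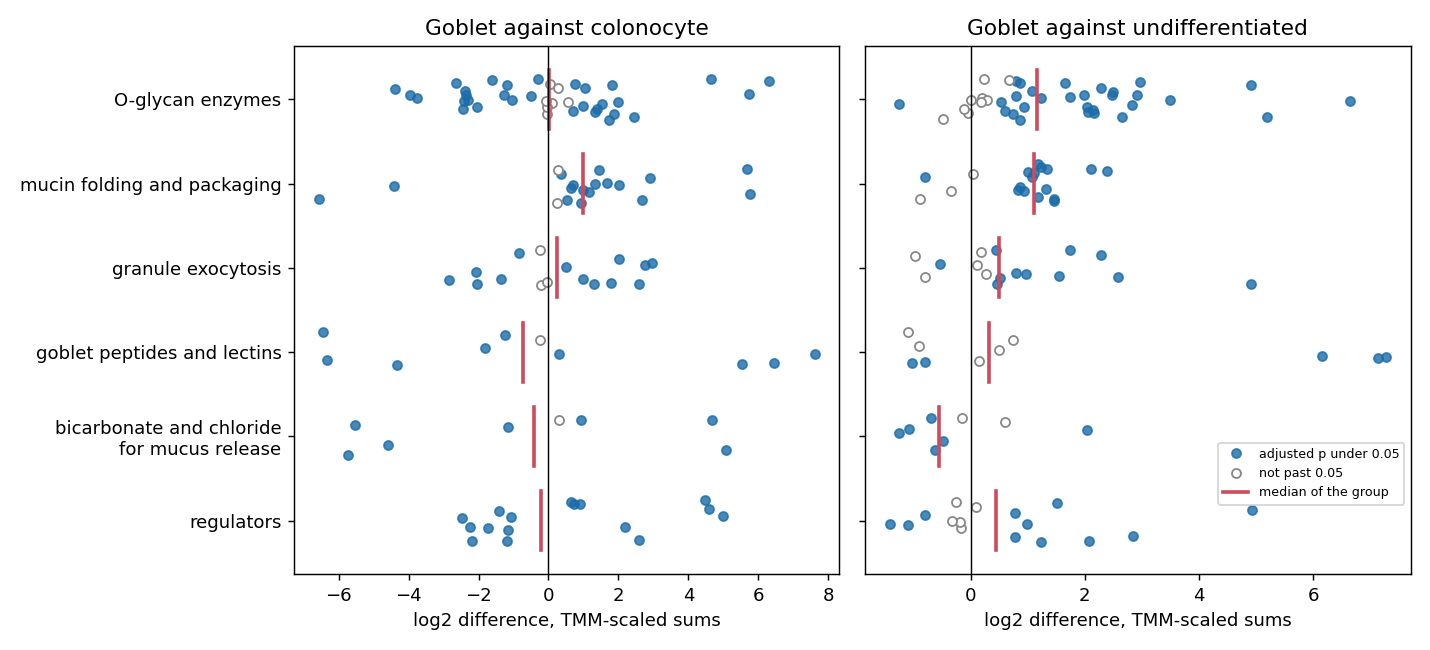
Log2 difference (x) of the tested pathway genes in goblet cells against colonocytes (left) and against undifferentiated cells (right), by list (rows); filled points had an adjusted p under 0.05, open points did not, and bars are list medians. The median of O-glycan enzymes is 0.01 on the left and 1.16 on the right.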

How the data were processed

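The deposited values are UMI counts per gene and cell barcode, which the authors made with Cell Ranger, version 7.0.0 per the file headers and 8.0.0 per the submitters' processing notes. The genome build in those notes is mm10; the annotation counted is one the sources used here leave unnamed. For one step the labels' protocols name a V3 kit (capture) and for the next v2 reagents (library construction), a conflict not resolved here. Barcodes with under 200 genes or at least 20% mitochondrial UMIs were removed, as were those with the highest Scrublet scores (0.8% per 1000 barcodes). Cells were clustered in scanpy 1.11.5 (2000 variable genes, 30 components, 15 neighbours, Leiden resolution 1). Counts summed per class and library (at least 20 cells in each library) were tested with edgeR 4.0.16 after filterByExpr, with Benjamini-Hochberg adjustment over all genes; p-values are edgeR's. The scripts were tested on simulated data. DESeq2 1.42.0 was an alternative. Same-numbered class sums come from the same library, so the library was a block. The members and lists were chosen with earlier results of these data known. Pathway genes were named as the 3 per list with the largest differences that passed and had the same sign in both libraries.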

Additional observations from a re-analysis of the deposited data

Results flagged for a closer look

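Barcodes that the filters removed, which no comparison above uses, held 85090 UMIs of the 10 members in library 1 and 70046 in library 2. Of the Muc2 UMIs, 14.4% of library 1 and 18.1% of library 2 lay there. In library 1 barcodes removed for mitochondrial UMIs held 5.12% of Muc2 and 5.44% of all UMIs. Those removed for their doublet score held 9.31% and 6.72%. In library 2 the former held 5.58% of Muc2 and 2.18% of all UMIs, and the latter 12.5% and 10.3%. In library 1, 96 of the 840 barcodes removed for mitochondrial UMIs and 56 of the 302 removed for their doublet score held at least 1000 CPM of Muc2. In library 2, 49 of 475 and 75 of 702 did. The share of all kept cells at that level was not counted. What these barcodes held was not tested.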

How the results depend on the processing

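The counts of members called kept within 1.5 times of those reported, except that without the library as a replicate block 0 members were lower in goblet than in undifferentiated cells instead of 1, and 1 was lower in colonocytes than in undifferentiated cells instead of 2. That count was also 1 with members and pathway genes kept in the clustering and with goblet cells taken without the smaller cluster. In colonocytes against undifferentiated cells the log2 difference of Muc2 changed sign, at -0.0066 with no doublets removed, -0.41 with members and pathway genes kept in the clustering and -0.48 by library totals. The cause was not tested. Leaving out the smaller cluster and scaling by library totals were chosen after seeing the data. Of all genes, those higher in goblet than in undifferentiated cells numbered 1721, and 1117 in DESeq2, 999 without the block, 1045 with members kept in the clustering and 1089 in 1 joint fit. Those lower numbered 870, and 1453 without a low-count filter, 174 without the block and 357 with members kept. Pathway genes lower there numbered 13, and 5 without the block. By library totals pathway genes in colonocytes against undifferentiated cells were 41 higher and 45 lower, instead of 65 and 26. Cplx2 lost its call against colonocytes without the block (edgeR adjusted p = 0.076). Muc4 in goblet cells against colonocytes passed with RLE scaling, no low-count filter and Leiden resolution 0.5 (edgeR adjusted p = 0.0478, 0.0185 and 0.0339). With 1 library left out each class has 1 sum, so those values have no test. Depth limits Muc1, with 9 UMIs in the colonocytes of library 2.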
